A study of Homo sapiens with 12 samples.

Results

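The genes described here carry secretory proteins into the endoplasmic reticulum (ER) and on to the Golgi. They were taken as the rows of the deposited gene table whose symbol is on a list of 49 names, and all 49 were found, each on 1 row, among 60612 genes. By role they are 8 genes of the signal recognition particle (SRP) and its receptor, 12 of the translocon and its partners, 5 of signal peptidase, 12 of the COPII coat and the ER exit sites, 5 cargo receptors and a membrane fusion protein, and 7 of the COPI coat and retrieval. All 49 passed the filter on low counts, so every member was tested.

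A protein bound for secretion is met by SRP as its signal peptide leaves the ribosome, passes through the SEC61 channel and loses the signal peptide to signal peptidase. Folded cargo leaves the ER in COPII vesicles, whose coat is set up by the GTPase SAR1, the inner coat of SEC23 and SEC24 and the outer coat of SEC13 and SEC31. COPI vesicles carry receptors and escaped ER chaperones back. Hepatic stellate cells make the collagen of the fibrotic liver, and procollagen, too large for a usual COPII vesicle, leaves the ER with the help of MIA3 (also called TANGO1).

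LX2 is an established human hepatic stellate cell line, given in the labels as wild type. All cells were starved of serum for 16 h, beginning 24 h after seeding. The control group then stayed untreated, the TGFb group received TGFb at 5 ng/ml for 16 h, and the STINGX with TGFb group was given STINGX, a compound known by its code name, at 10 µM starting 3 h ahead of an identical TGFb dose. Each group has 4 libraries of polyadenylated RNA, and no group had STINGX alone. Whether replicates are separate cultures is not stated in the labels, and the p-values therefore reflect the spread among these libraries alone, possibly a technical one.

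Totals ran from 54035320 to 70787741 counts, at which 1 count is worth 0.0141 to 0.0185 CPM (counts scaled to an equal library total), while the members lay between 22.1 and 959 CPM. Of 8 stellate cell markers, 6 had counts, among them collagen genes, and DES and LRAT were at 0 in every library. The other marker lists had low sums: the hepatocyte list stayed between 3.79 and 10.5 CPM and the endothelial list between 2.75 and 6.46 CPM, with ALB and LYVE1 at 0. The leukocyte list summed to 71.7 to 79.2 CPM in control, 23.9 to 28.9 with TGFb and 71.2 to 87.2 with STINGX and TGFb. The epithelial list summed to 44.7 to 48.8, 56.7 to 65.1 and 29.4 to 30.7 CPM. All libraries were made from LX2 cells, and these sums do not show that other cell types were present. Any part of other cells in the changes below was not tested. In bulk RNA, fewer cells of a type and less RNA per cell cannot be told apart.

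The members differed widely in level and little between libraries of a group. On the per-length FPKM scale SURF4, SEC61A1 and KDELR1 led in control, with medians of 97.8, 86.2 and 82.1 FPKM, and SRP19, MIA3 and SAR1A came last, with 3.78, 4.40 and 4.58 FPKM. The coefficient of variation between the 4 libraries of a group had a median of 5.09% over members and groups. In 5 members (SRP9, SEC61A1, SSR1, SAR1A and SURF4) the highest library of at least 1 group was over 2 times its lowest, and their values are given below by library. In all, 28 members overlap another tested gene, 5 of them on the same strand (SRP19, SSR1, SEC31A, COPB1 and KDELR2). How such reads were divided is not given in the sources used here, so these counts are uncertain.

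A short promoter motif recurs among these genes and is shown because its holders can be followed through the results. The core of the unfolded protein response element, TGACGTGG, is a site known for factors of the ER stress response such as XBP1 and ATF6. It was searched on both strands (reverse complement CCACGTCA) in RefSeq windows from 250 bases before to 50 bases after each transcription start (build GRCh38.p14). Of 27305 genes with a window, 253 (0.927%) held it, against 11 of the 44 members with a window (25%). Among 108 genes with a window from the lists of other transport and ER stress genes described last it was found in 4 (3.70%). Counted by windows, it was in 256 of 35116 (0.729%) and in 12 of 59 member windows (20.3%). The ER stress element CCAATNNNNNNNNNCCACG was in 27 windows (0.0769%) and the second element ATTGGNCCACG in 19 (0.0541%), and neither was in a member window. The core shares the 5 letters CCACG of its reverse complement with both elements. These are counts of letters in a window, without a test.

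The 12 sites of the core in the 11 genes follow, each with 11 bases on either side, read 5′ to 3′ on the strand of the gene, with the core or its reverse complement in capitals. The genomic positions are those of the 30 bases shown. The sites of COPA and SEC16A and 1 of those of COPB2 lie after the transcription start and the others begin before it.
COPA, chr1:160343227-160343256: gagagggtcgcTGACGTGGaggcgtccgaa
COPB1, chr11:14499841-14499870: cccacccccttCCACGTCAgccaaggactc
COPB2, site after the start, chr3:139389632-139389661: tcccggaagttCCACGTCAgtcagtctgac
COPB2, site before the start, chr3:139389825-139389854: gctcagcggcaCCACGTCAcggcccttagt
KDELR3, chr22:38468039-38468068: ggccgccctggCCACGTCAccgcccggcca
SEC16A, chr9:136484707-136484736: tggccctggtgCCACGTCAgccggactgaa
SEC23A, chr14:39103221-39103250: tcccctcctctTGACGTGGcagaggcggcg
SEC24A, chr5:134648595-134648624: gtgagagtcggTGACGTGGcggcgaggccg
SEC62, chr3:169966779-169966808: ccctcctcgctCCACGTCAgagggaaccgg
SRP19, chr5:112861164-112861193: aagtcttcatgCCACGTCAgagactagaga
SSR3, chr3:156554148-156554177: tctgataacagCCACGTCAgcaaggaaact
SSR4, chrX:153794528-153794557: tcagggaggggCCACGTCAgtgctgccaga

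In TGFb against control, COPA, COPB1, COPB2, KDELR3, SEC23A, SEC24A, SRP19 and SSR3 rose, 8 of the 11 genes with the core, and SEC16A, SEC62 and SSR4 did not pass the test (13.2% of all tested genes rose and 12.8% fell). Of the 33 members with a window but no core, 11 rose and 1 fell. The 5 members without a window are in neither count, and whether they hold the core is not known. Of these KDELR2, SRPRA, TRAM1 and SEC24D rose with TGFb, and SPCS1 did not pass. With STINGX added SRPRA and TRAM1 rose, KDELR2 fell, and SPCS1 and SEC24D did not pass. Median log2 changes were 0.29 with the core and 0.17 without it. Of 133 other tested genes with the core, 25 (18.8%) rose and 22 (16.5%) fell. In STINGX with TGFb against TGFb, 3 of the 11 rose and 3 fell, and of the 33 others 9 rose and 0 fell at an adjusted p under 0.05 (13.7% of all tested genes rose and 13.8% fell). Of the 133 other genes with the core 33 (24.8%) rose and 15 (11.3%) fell in that step. Among all tested genes with a window, 17.1% rose and 16.0% fell there. The members' medians there were -0.04 and 0.11. The 3 rises were SSR3, SSR4 and SEC62, and the 3 falls were SEC23A, COPB1 and COPB2, of which the fall of SEC23A alone was called when libraries were scaled by their total. These counts describe the members and were not tested.

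With TGFb, the members as a set stood higher. At an adjusted p under 0.05 (edgeR's quasi-likelihood test with Benjamini-Hochberg adjustment over all tested genes), 23 of 49 rose and 1, SEC22B, fell, where 13.2% of all 21328 tested genes rose and 12.8% fell. With libraries scaled by their total alone, 18 rose and 4 fell: SRPRA, SEC63, SEC13, SEC24B and COPG1 lost their calls (adjusted p of 0.18, 0.0959, 0.0598, 0.178 and 0.0867), and SRP14, SRP54 and SEC11A passed as lower. The median log2 change was 0.20, against -0.00 for all genes, and 43 of 49 estimates were above 0. All 4 TGFb libraries were above or below all 4 control libraries for 26 members, which was so for 27.1% of all genes. The rises were modest in size, the largest among those that passed being 0.56 on the log2 scale in KDELR3, and they were most frequent in the COPI group (6 of 7) and the COPII group (7 of 12).

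With STINGX before TGFb, set against TGFb alone, the members moved both ways. In total 14 rose and 4 fell, where 13.7% of all genes rose and 13.8% fell. The median log2 change was 0.05 for the members and 0.01 for all genes. The rises lay in the SRP receptor, the translocon, signal peptidase, cargo receptors, SEC22B, MIA3 and SEC23B, and the 4 falls were SEC23A, KDELR2, COPB2 and COPB1. For 22 members all STINGX libraries lay above or below all TGFb libraries, a state found in 31.6% of all genes. This split moves with the scaling. When libraries were scaled by their total alone, the median of all genes shifted by 0.14 on the log2 scale, 24 members rose and 1, SEC23A, fell. The 10 rises that this scaling added were those of SRP14, SRP19, SRP54, TRAM2, SEC24B, SEC24D, SEC31A, COPG1, KDELR1 and KDELR3. The members' median stood 0.04 above that of all genes under either scaling.

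The comparison of STINGX with TGFb against control shares libraries with both others. In it 27 members rose and 2 (SEC22B and SEC11A) fell, where 17.2% of all genes rose and 17% fell. The median log2 change was 0.25, against 0.00 for all genes. Groups did not overlap for 31 members, as for 34.5% of all genes. Summed over the 49 genes, the members held 6927 ± 411 CPM in control, 8139 ± 215 with TGFb and 8885 ± 165 with STINGX and TGFb (mean ± SD, n = 4).

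**Figure D1:**
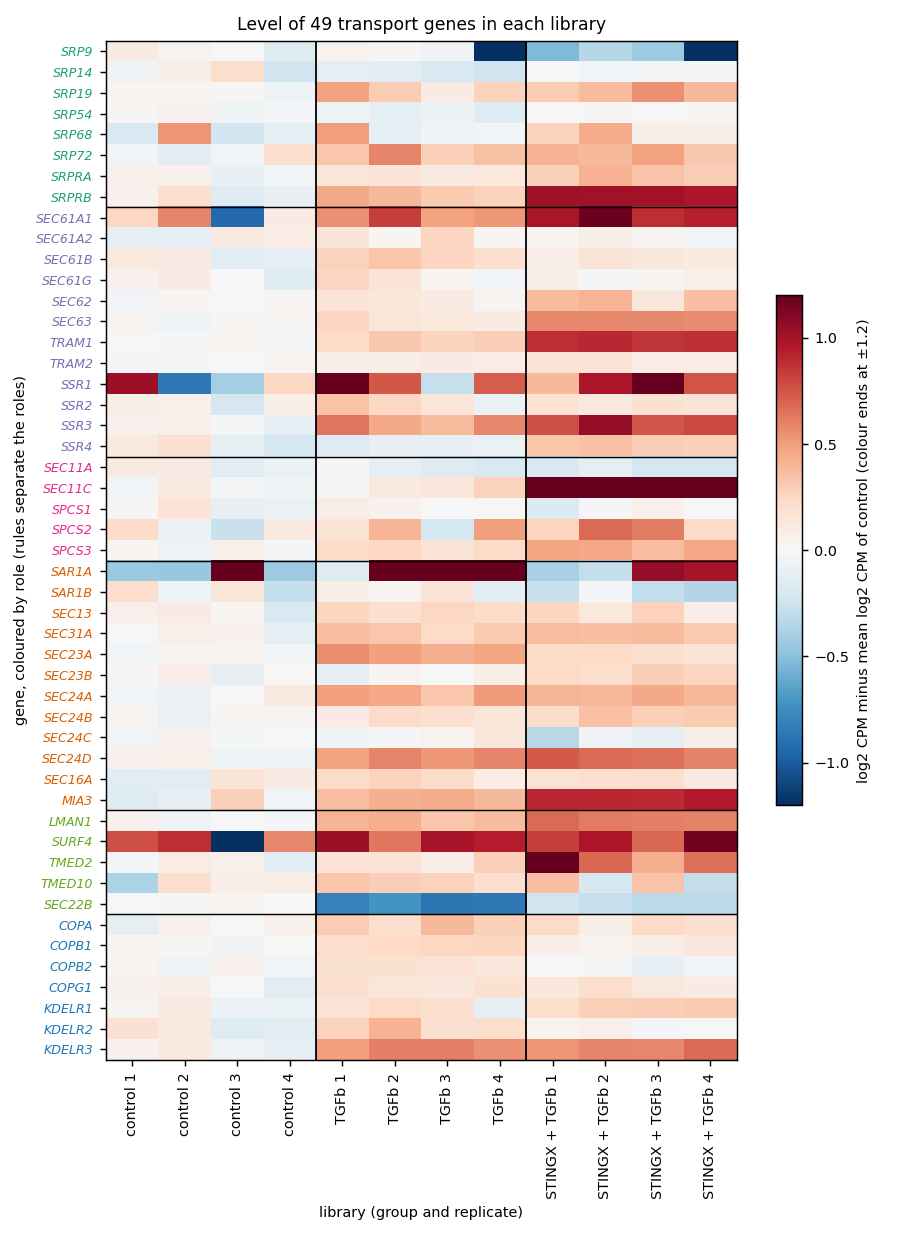
Level of each of the 49 genes (rows, by role) in each of the 12 libraries (columns), as log2 CPM minus the gene's mean log2 CPM in control, with red for higher and blue for lower. SEC22B is blue in all 4 TGFb libraries, SEC11C is dark red in all 4 libraries with STINGX, and SAR1A, SURF4, SSR1 and SRP9 differ between libraries of a group.

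**Figure D2:**
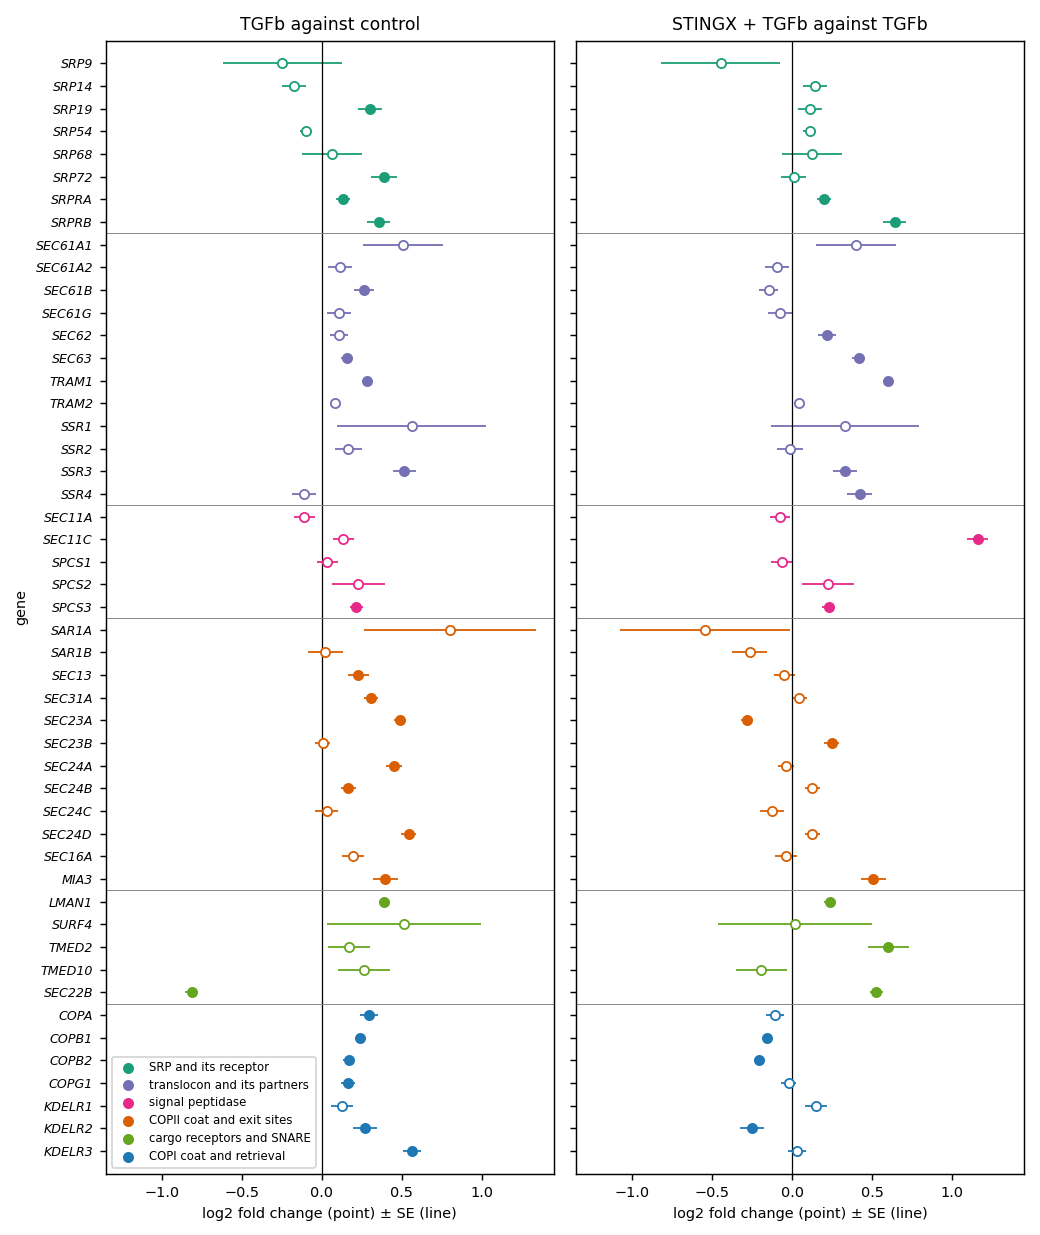
Log2 fold change (points) with its standard error (lines) for each gene in TGFb against control and in STINGX with TGFb against TGFb, coloured by role. Filled points have an adjusted p under 0.05 and open points do not. The COPI genes lie to the right of 0 in the left panel, where 6 of 7 passed the test, and SEC11C lies furthest right in the right panel.

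SRP consists of an RNA and 6 proteins, of which SRP54 binds the signal peptide and SRP9 and SRP14 slow translation. Its receptor is SRPRA, a GTPase, held on the ER membrane by SRPRB. In TGFb against control 4 of these 8 genes rose and 0 fell, SRP19, SRP72, SRPRA and SRPRB, but with scaling by library total alone 3 rose and 2 fell. With STINGX added, SRPRA and SRPRB rose, the receptor pair, and no particle gene passed the test, whereas 5 of the 8 rose with scaling by library total alone. Of all tested genes in the reported fit, 13.2% rose and 12.8% fell with TGFb, and 13.7% and 13.8% with STINGX added.

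SRPRB (ENSG00000144867, chr3:133784023-133821492, plus strand) was at 36.2, 39.8, 31.4 and 32.7 CPM in control, 47.9, 45.6, 43.5 and 42.2 with TGFb and 70.8, 70.0, 69.9 and 68.5 with STINGX and TGFb. The 3 groups did not overlap. Its log2 change was 0.35 ± 0.07 (SE) with TGFb (adjusted p = 0.00259), 0.64 ± 0.07 with STINGX added (adjusted p = 1.94e-05) and 0.995 ± 0.07 from control to both agents (adjusted p = 3.25e-07), the last a 1.99-fold rise. Its partner SRPRA changed less, by 0.13 ± 0.04 with TGFb (adjusted p = 0.04) and by 0.20 ± 0.04 with STINGX added (adjusted p = 0.00419). The SRPRA rise with TGFb lost its call in 9 of the 12 fits that left out 1 library, all but those without control replicate 1, control replicate 2 or STINGX with TGFb replicate 2, with adjusted p up to 0.107.

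Among the particle genes, SRP72, which with SRP68 forms the largest protein pair of SRP, rose with TGFb by 0.39 ± 0.08 (adjusted p = 0.00263) and stood at 0.01 with STINGX added (adjusted p = 0.938). SRP19, an assembly protein, rose with TGFb by 0.30 ± 0.08 (adjusted p = 0.0108). SRP68 had log2 changes of 0.06 and 0.12, SRP54 of -0.10 and 0.11, and SRP14 of -0.17 and 0.14, none past the test. SRP9 was low in single libraries, at 148, 142, 138 and 124 CPM in control, 141, 139, 133 and 50.4 with TGFb and 95.4, 109, 102 and 34.6 with STINGX and TGFb. Replicate 4 was the low library in both treated groups, and its log2 changes of -0.25 (adjusted p = 0.689) and -0.45 (adjusted p = 0.431) did not pass the test.

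Every translocon gene that passed the test was higher, at either step. The channel is SEC61A1 with SEC61B and SEC61G, SEC62 and SEC63 serve proteins that arrive late or need the chaperone HSPA5, TRAM1 sits beside the channel, and SSR1 to SSR4 form the translocon-associated protein complex. In TGFb against control 4 of 12 rose (SSR3, TRAM1, SEC61B and SEC63) and 0 fell. With STINGX added 5 of 12 rose (TRAM1, SSR4, SEC63, SSR3 and SEC62) and 0 fell, with a median log2 change of 0.27 over the 12. Among all tested genes 13.2% rose and 12.8% fell with TGFb, and 13.7% and 13.8% with STINGX added. The summed level of the 12 genes was 2030 ± 206, 2522 ± 141 and 3090 ± 149 CPM in control, TGFb, and STINGX with TGFb (mean ± SD, n = 4).

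TRAM1 was at 155, 152, 158 and 153 CPM in control, 183, 193, 186 and 189.6 with TGFb and 285, 289.9, 280.5 and 284 with STINGX and TGFb. The groups lay apart in order, control lowest. Its log2 change was 0.28 ± 0.03 with TGFb (adjusted p = 2.17e-05) and 0.60 ± 0.03 with STINGX added (adjusted p = 2.13e-08). Its paralogue TRAM2, studied for its part in type I collagen synthesis, was at 374, 378, 382 and 388 CPM in control, 402, 400.4, 406 and 405 with TGFb and 428, 423, 404 and 404 with STINGX and TGFb. TRAM2 passed the test in neither step (adjusted p = 0.0596 and adjusted p = 0.368), although its total change from control was 0.12 ± 0.03 (adjusted p = 0.00652).

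SEC63, a membrane J-domain protein that brings HSPA5 to the channel, was at 169, 159, 166 and 167 CPM in control, 197, 183, 181 and 177 with TGFb and 246, 246, 246 and 245 with STINGX and TGFb. The 4 libraries with STINGX were all above the 4 with TGFb, which were all above control. Its changes were 0.16 ± 0.04 (adjusted p = 0.00892) and 0.42 ± 0.04 (adjusted p = 4.4e-06). The first call was lost with scaling by library total alone, with only the 8 libraries compared and on the log2(FPKM + 1) and log2(FPKM + 0.1) scales (adjusted p up to 0.153, the highest being without a filter). SEC62 rose with STINGX added by 0.22 ± 0.06 (adjusted p = 0.0115) and stood at 0.11 with TGFb (adjusted p = 0.194).

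SSR3 was at 348, 351, 332 and 313 CPM in control, 525, 460.3, 436 and 500.4 with TGFb and 572, 695, 567 and 583 with STINGX and TGFb. All treated libraries exceeded the controls, and the log2 change was 0.52 ± 0.07 with TGFb (adjusted p = 0.000211) and 0.33 ± 0.07 with STINGX added (adjusted p = 0.005). SSR4 did not follow it in the first step: it was at 69.6, 73.3, 59.5 and 55.3 CPM in control, 57.6, 60.1, 59.9 and 60.7 with TGFb and 80.4, 81.8, 78.7 and 77.9 with STINGX and TGFb. Its libraries with STINGX were all above the other 8, with changes of -0.11 ± 0.08 (adjusted p = 0.327) and 0.42 ± 0.08 (adjusted p = 0.00113). SSR2 stood at 0.17 and -0.01 without passing, and SSR1, a gene with a wide spread in every group, was at 169.9, 46.1, 62.8 and 99.2 CPM in control, 209.7, 139.9, 68.8 and 138 with TGFb and 109, 165, 285 and 141 with both agents, so that its groups overlapped.

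SEC61A1, the pore itself, was at 504, 634, 222 and 453 CPM in control, 621, 753, 590.1 and 607 with TGFb and 834, 959, 781 and 810.2 with STINGX and TGFb. Control replicate 3 was the low library. Its rise from control to both agents passed the test (0.90 ± 0.25, adjusted p = 0.018), as it did without control replicate 3 (0.67, adjusted p = 0.0022). The separate steps did not pass (adjusted p = 0.178 and adjusted p = 0.284), and without control replicate 3 the second step did (log2 change of 0.40, adjusted p = 0.0266). SEC61A2, the minor paralogue, stayed at 22.1, 22.3, 25.8 and 25.5 CPM, 26.6, 24.2, 28.5 and 24.3 and 24.3, 25.1, 24.4 and 23.3 in the same order of groups, with adjusted p = 0.307 and adjusted p = 0.402. SEC61B rose with TGFb by 0.26 ± 0.06 (adjusted p = 0.00617) and stood at -0.15 with STINGX added (adjusted p = 0.0964), and SEC61G passed neither test, at 0.11 and -0.08.

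Signal peptidase cuts with either of a pair of catalytic subunits, SEC11A or SEC11C, held by the accessory subunits SPCS1 to SPCS3. Of these 5 genes, SPCS3 rose with TGFb, and SEC11C and SPCS3 rose with STINGX added. Scaling by library total alone gave 1 rise and 1 fall in the first step and 2 rises in the second. Among all tested genes in the reported fit, 13.2% rose and 12.8% fell in the first step, and 13.7% and 13.8% in the second. SEC11C (ENSG00000166562, chr18:59139866-59158832, plus strand) gave the largest change of any member. Its levels were 29.4, 32.5, 29.5 and 28.9 CPM in control, 30.2, 32.5, 32.9 and 36.3 with TGFb and 73.2, 74.4, 68.8 and 77.7 with STINGX and TGFb, so that control and TGFb libraries overlapped and the 4 libraries with STINGX lay far above both. The log2 change was 0.13 ± 0.07 with TGFb (adjusted p = 0.167) and 1.16 ± 0.06 with STINGX added (adjusted p = 4.15e-08), a 2.23-fold rise.

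SEC11A, the other catalytic subunit, was at 124, 123, 105 and 109 CPM in control, 116, 107, 103 and 101 with TGFb and 101, 106, 99.2 and 99.2 with STINGX and TGFb. It passed the test only from control to both agents (-0.19 ± 0.06, adjusted p = 0.037). That call was lost without control replicate 1 or 2 or without STINGX with TGFb replicate 1, 3 or 4, with adjusted p up to 0.108. It was also lost with scaling by library total alone, with no filter on low counts and on the log2(FPKM + 1) and log2(FPKM + 0.1) scales. Over all these fits adjusted p was up to 0.376. The log2 ratio of SEC11C to SEC11A counts within a library, which needs no scaling between libraries, was -2.08, -1.92, -1.84 and -1.91 in control, -1.94, -1.72, -1.65 and -1.47 with TGFb and -0.46, -0.51, -0.53 and -0.35 with STINGX and TGFb. The last group lay apart from the others. SPCS3 rose by 0.22 ± 0.04 (adjusted p = 0.00179) and again by 0.23 ± 0.04 (adjusted p = 0.00112). SPCS1 stood at 0.03 and -0.07 and SPCS2 at 0.23 and 0.22 without passing. SPCS2 has a processed copy, SPCS2P4, at means of 28 to 32.7 CPM, so its reads may have been divided.

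Of the COPII genes, SEC23A, SEC24A, SEC24D and MIA3 gave the largest rises past the test with TGFb. Among all tested genes 13.2% rose and 12.8% fell with TGFb, and 13.7% and 13.8% with STINGX added. In TGFb against control 7 of 12 rose and 0 fell: SEC24D, SEC23A, SEC24A, MIA3, SEC31A, SEC13 and SEC24B, with 5 rises and 0 falls when libraries were scaled by their total alone. With STINGX added, MIA3 and SEC23B rose, SEC23A fell and 9 did not pass, while scaling by library total alone gave 5 rises and 1 fall in that step. The summed level was 1202 ± 65.8 CPM in control, 1476 ± 43.8 with TGFb and 1450.0 ± 37.8 with STINGX and TGFb (mean ± SD, n = 4).

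SEC23A (ENSG00000100934, chr14:39031919-39103652, minus strand), the inner coat subunit that also stimulates the GTPase of SAR1, was at 149, 156, 156 and 148 CPM in control, 224, 214, 205 and 212 with TGFb and 178, 179.6, 173 and 171 with STINGX and TGFb. The 3 groups did not overlap, with the STINGX group between the others. It rose with TGFb by 0.49 ± 0.04 (adjusted p = 6.92e-07) and fell with STINGX added, at -0.28 ± 0.04 (adjusted p = 8.88e-05). The fall was also called with scaling by library total alone (-0.14, adjusted p = 0.00917).

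SEC23B, its paralogue, showed another order, with 137, 143, 126 and 136 CPM in control, 126, 139, 136 and 143 with TGFb and 159.6, 157, 166 and 162 with STINGX and TGFb. Control and TGFb overlapped, and the STINGX group was above both. Its log2 change was 0.00 ± 0.05 (adjusted p = 0.958) and then 0.25 ± 0.05 (adjusted p = 0.00231). The log2 ratio of SEC23A to SEC23B counts was 0.12, 0.12, 0.30 and 0.13 in control, 0.83, 0.63, 0.59 and 0.56 with TGFb and 0.16, 0.20, 0.06 and 0.07 with both agents. The TGFb libraries lay above all others, and control and STINGX libraries overlapped. This ratio was looked at after the values were seen.

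SEC24 proteins select the cargo, and of the 4 paralogues 3 rose with TGFb. SEC24D was at 97.1, 97.7, 90.3 and 90.6 CPM in control, 131, 141, 134 and 141 with TGFb and 157, 151, 148 and 142 with STINGX and TGFb, and SEC24A at 69.6, 68.2, 71.3 and 76.9 CPM in control, 100.3, 98.5, 90.2 and 102 with TGFb and 95, 94, 97.8 and 93.6 with STINGX and TGFb. Both were higher in every treated library than in any control library. SEC24D rose with TGFb by 0.54 ± 0.05 (adjusted p = 1.74e-06) and stood at 0.13 with STINGX added (adjusted p = 0.0557). SEC24A rose with TGFb by 0.45 ± 0.05 (adjusted p = 2.23e-05) and stood at -0.04 with STINGX added (adjusted p = 0.625). It overlaps SAR1B on the other strand.

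SEC24B was at 47.1, 43.7, 46.9 and 47.2 CPM in control, 49.4, 54, 53 and 51.1 with TGFb and 53.7, 58.8, 56.5 and 57.6 with STINGX and TGFb. TGFb libraries lay just above control, with a change of 0.17 ± 0.05 (adjusted p = 0.0259) that lost its call without control replicate 2, TGFb replicate 2 or TGFb replicate 3 (adjusted p up to 0.0795). SEC24C was at 134, 143, 135 and 138 CPM in control, 133, 136, 142 and 151 with TGFb and 109, 134, 127 and 145 with STINGX and TGFb, with overlapping groups and adjusted p = 0.824 and adjusted p = 0.244. The log2 ratio of SEC24D to SEC24C counts was -0.47, -0.55, -0.59 and -0.61 in control, -0.02, 0.05, -0.08 and -0.10 with TGFb and 0.52, 0.17, 0.22 and -0.03 with both agents, every control library being below every treated one.

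MIA3 (ENSG00000154305, chr1:222618097-222668007, plus strand), the exit site receptor for procollagen, was at 50.2, 52.4, 68.4 and 54.7 CPM in control, 72.4, 75.1, 76.4 and 73.3 with TGFb and 105, 105, 104 and 108 with STINGX and TGFb. The groups lay in order without overlap. It rose by 0.40 ± 0.08 with TGFb (adjusted p = 0.00245) and by 0.51 ± 0.08 with STINGX added (adjusted p = 0.000366), a 1.87-fold rise from control to both agents. Beside it, COL1A1, a procollagen gene and one of the stellate cell markers, was at 2307 ± 16.4 CPM in control, 6367 ± 121 CPM with TGFb and 1644 ± 15.2 CPM with both agents (mean ± SD, n = 4), so that in the second step COL1A1 fell (-1.95 ± 0.02, adjusted p = 4.03e-14) while MIA3 rose.

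The outer coat genes SEC31A and SEC13 rose with TGFb by 0.31 ± 0.04 (adjusted p = 0.000202) and 0.23 ± 0.06 (adjusted p = 0.018), and stood at 0.05 and -0.05 with STINGX added, neither past the test. SEC16A, the scaffold of exit sites, stood at 0.20 (adjusted p = 0.0524) and -0.04, and the first value passed without control replicate 3, control replicate 4 or TGFb replicate 4 (adjusted p of 0.0161 to 0.0383). SAR1A, a paralogue of the GTPase that starts the coat, had low and high libraries, at 37.8, 37.6, 129 and 38 CPM in control, 46.5, 135, 123 and 118 with TGFb and 39.3, 42.1, 106 and 102 with STINGX and TGFb. Both kinds occurred in every group, and its changes had standard errors of 0.53 to 0.54 (adjusted p = 0.328 and adjusted p = 0.51). Without control replicate 3, the high control library, its change with TGFb was 1.48 (adjusted p = 0.0485). SAR1B, the other paralogue, was at 76.6, 63.5, 73.2 and 54.3 CPM in control, 69.6, 67.8, 73.9 and 60.2 with TGFb and 55, 65.2, 54 and 51.9 with STINGX and TGFb, with overlapping groups and adjusted p = 0.917 and adjusted p = 0.0933. The second of these passed without control replicate 4 or without STINGX with TGFb replicate 2 (adjusted p of 0.0465 and 0.043).

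**Figure D3:**
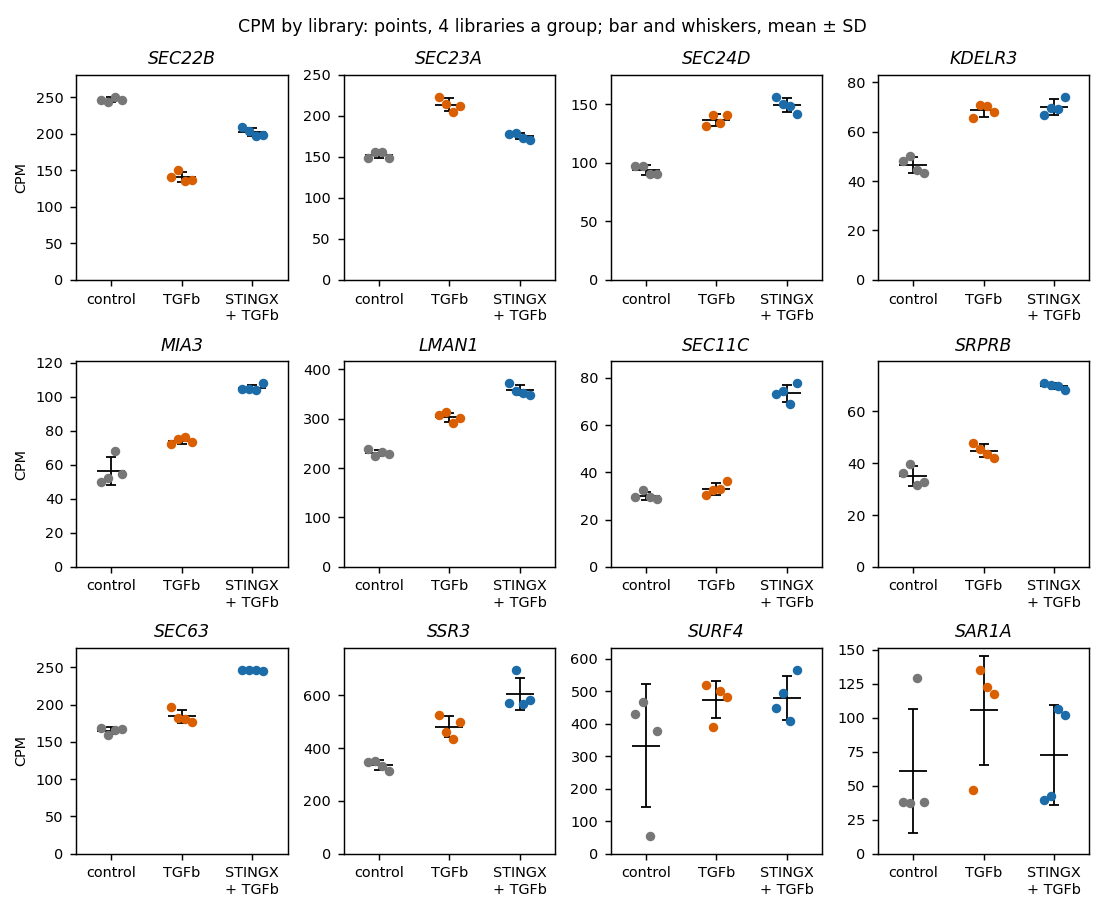
CPM of 12 genes in each library (points, 4 per group) with the mean and SD of each group (bar and whiskers), every axis starting at 0. SEC22B is lowest with TGFb, SEC23A is highest with TGFb and SEC11C stands apart with STINGX and TGFb. SURF4 has a single control library far below the rest, and SAR1A has low and high libraries in every group.

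Cargo receptors and the fusion protein of the ER-Golgi step included SEC22B, the 1 member of 49 that fell with TGFb. SEC22B (ENSG00000265808, chr1:120150898-120176520, minus strand), a SNARE that fuses vesicles between ER and Golgi, was at 246, 244, 251 and 247 CPM in control, 140.5, 150.4, 135 and 136 with TGFb and 209.9, 204, 197 and 198 with STINGX and TGFb. The 3 groups did not overlap and control was the highest. It fell with TGFb (log2 change of -0.81 ± 0.04, adjusted p = 1.03e-08) and rose with STINGX added (0.53 ± 0.04, adjusted p = 6.59e-07), remaining below control (-0.29 ± 0.04, adjusted p = 0.000104). Named copies SEC22B4P, SEC22B2P and SEC22B3P were at means of at most 2.44 CPM.

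LMAN1 (also called ERGIC-53), a lectin that escorts glycoproteins out of the ER, was at 239.7, 225, 232 and 229 CPM in control, 308, 313, 291 and 301 with TGFb and 372, 357, 353 and 349 with STINGX and TGFb. The groups lay apart, and the rise was 0.39 ± 0.04 with TGFb (adjusted p = 3.99e-06) and 0.24 ± 0.04 with STINGX added (adjusted p = 0.000287). TMED2, a p24 receptor, was at 154, 167, 163 and 144 CPM in control, 177, 175, 166 and 191 with TGFb and 359.7, 254, 213 and 248 with STINGX and TGFb. Its libraries with STINGX were all above the other 8, and it rose in that step by 0.60 ± 0.13 (adjusted p = 0.00482), having stood at 0.17 with TGFb (adjusted p = 0.39). Its p24 partner TMED10 stood at 0.26 and -0.19 with adjusted p = 0.28 and adjusted p = 0.427. SURF4, a receptor for soluble cargo, was at 430.4, 467, 53.6 and 376 CPM in control, 518, 391, 500.2 and 483 with TGFb and 449.6, 494, 407 and 564 with STINGX and TGFb. Control replicate 3 was far below the others, and SURF4 passed neither test (adjusted p = 0.5 and adjusted p = 0.984). Without that library its change with TGFb was 0.15 (adjusted p = 0.437).

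Of the COPI and retrieval genes all but KDELR1 rose with TGFb. COPA, COPB1, COPB2 and COPG1 are subunits of the coat, and KDELR1 to KDELR3 are receptors that return KDEL-tagged chaperones from the Golgi. Among all tested genes 13.2% rose and 12.8% fell with TGFb, and 13.7% and 13.8% with STINGX added. With TGFb 6 of 7 rose and 0 fell, with a median log2 change of 0.24, and 5 of 7 rose with scaling by library total alone. With STINGX added, 0 rose and 3 fell, COPB1, COPB2 and KDELR2, but with scaling by library total alone the same step had 3 rises (KDELR1, KDELR3 and COPG1) and 0 falls. Under that scaling COPB1, COPB2 and KDELR2 had values below 0 that did not pass. The summed level was 1325 ± 50.8, 1549 ± 34.3 and 1455 ± 7.15 CPM in control, TGFb and STINGX with TGFb (mean ± SD, n = 4).

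COPB2 was at 229, 218, 233 and 220.2 CPM in control, 256, 255, 253 and 247 with TGFb and 224, 221, 211 and 220.4 with STINGX and TGFb. All 4 TGFb libraries were above the rest, and the changes were 0.17 ± 0.03 (adjusted p = 0.0029) and -0.21 ± 0.03 (adjusted p = 0.000612). COPB1 was at 162, 161, 154 and 159.6 CPM in control, 185, 188, 189 and 191 with TGFb and 168, 164, 168 and 174 with STINGX and TGFb. On this TMM scale the TGFb libraries were again above the rest, which need not hold with scaling by library total alone. COPB1 changed by 0.24 ± 0.03 (adjusted p = 0.000138) and -0.16 ± 0.03 (adjusted p = 0.00333). Scaled by library total alone, these second changes were -0.07 for COPB2 (adjusted p = 0.176) and -0.02 for COPB1 (adjusted p = 0.775). COPA rose with TGFb by 0.29 ± 0.06 (adjusted p = 0.00162) and COPG1 by 0.16 ± 0.05 (adjusted p = 0.0199), the latter losing its call without TGFb replicate 1 or 4 (adjusted p of 0.0574 and 0.0525). In the second step COPA stood at -0.11 and COPG1 at -0.02, neither past the test.

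KDELR3 (ENSG00000100196, chr22:38468078-38483447, plus strand) was at 47.9, 50.03, 44.4 and 43.3 CPM in control, 65.3, 70.6, 70.5 and 67.8 with TGFb and 66.9, 69.4, 69.3 and 74.2 with STINGX and TGFb. Every treated library was above every control library, and the treated groups overlapped. Its log2 change was 0.56 ± 0.06 with TGFb (adjusted p = 8.59e-06), the largest rise of a member past the test in that comparison, and 0.03 ± 0.06 with STINGX added (adjusted p = 0.756). KDELR2 was at 256, 243, 202 and 205 CPM in control, 273, 300.4, 256 and 261 with TGFb and 232, 235, 223 and 226 with STINGX and TGFb. The highest control library just exceeded the lowest TGFb library, and the STINGX group lay below TGFb. It rose by 0.27 ± 0.08 (adjusted p = 0.0206) and fell at the second step (-0.25 ± 0.08, adjusted p = 0.0271). The first call of KDELR2 was lost without control replicate 3, control replicate 4 or TGFb replicate 2 (adjusted p up to 0.0685). The second was lost without TGFb replicate 1 or 2 or STINGX with TGFb replicate 1, 3 or 4 (adjusted p up to 0.085), and with scaling by library total alone (-0.11, adjusted p = 0.225). KDELR1 was at 228, 240.1, 211 and 212 CPM in control, 249, 263, 254 and 207 with TGFb and 258, 272, 273 and 276 with STINGX and TGFb, with overlap between control and TGFb, and passed the test only from control to both agents (0.27 ± 0.07, adjusted p = 0.00751).

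On the per-length scale KDELR3 was the least abundant of the 3 receptors. Control means were 83.1 ± 3.58 FPKM for KDELR1, 48.2 ± 4.87 FPKM for KDELR2 and 20.3 ± 0.992 FPKM for KDELR3 (mean ± SD, n = 4). The log2 ratio of KDELR3 to KDELR1 counts was -2.25, -2.26, -2.25 and -2.29 in control, -1.93, -1.90, -1.85 and -1.61 with TGFb and -1.95, -1.97, -1.98 and -1.90 with both agents, with every control library below every treated one.

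**Figure D4:**
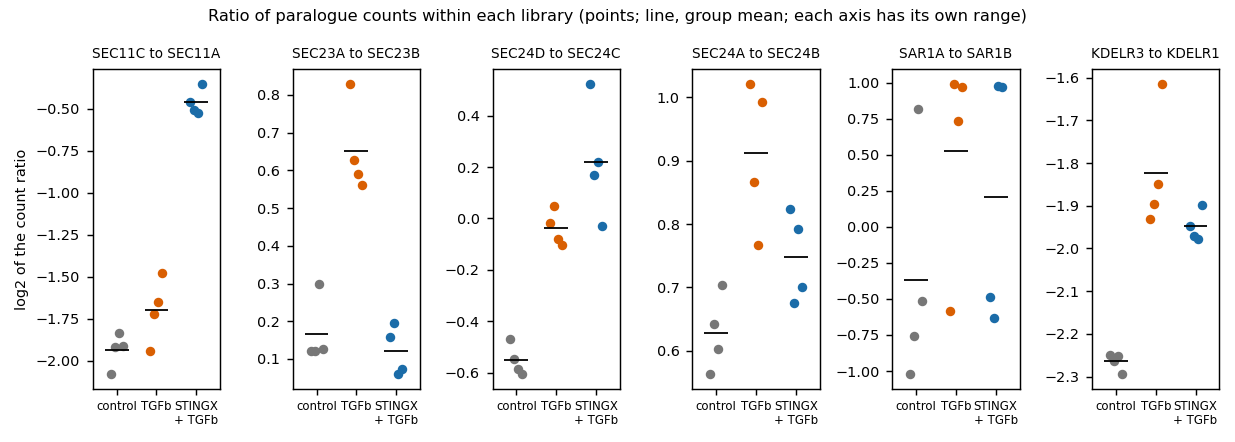
Log2 ratio of the counts of paralogues within each library (points), with group means (lines) and a separate vertical range for each pair. SEC11C gained on SEC11A with STINGX and TGFb, SEC23A gained on SEC23B with TGFb, with means of 0.17, 0.65 and 0.12 in the 3 groups, and SAR1A to SAR1B split within every group.

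Of 110 other tested genes of protein insertion and transport, 13 rose and 7 fell with TGFb, with a median log2 change of 0.01, but 7 rose and 20 fell with scaling by library total alone, where the median was -0.05. Among all tested genes in the reported fit, 13.2% rose and 12.8% fell, and the share of rises in the 110 was near that. Of the oligosaccharyltransferase, which adds glycans at the channel, 1 of 12 rose (OSTC, 0.38 ± 0.06, adjusted p = 0.000411). Of 18 further COPI, ARF and retrograde tether genes 4 rose, led by the GTPase ARF4 (0.57 ± 0.16, adjusted p = 0.02) and by ARFGAP3 (0.45 ± 0.05, adjusted p = 3.96e-05). Of 24 further COPII, exit site and ERGIC genes 4 rose and 2 fell (1 and 3 with scaling by library total alone), with the SNARE GOSR2 at 0.43 (adjusted p = 0.00111) and RAB1B at -0.29 (adjusted p = 0.00502). Of 6 other p24 genes 2 rose and 1 fell (TMED3 at 0.40, TMED4 at -0.23). Of 13 TRAPP tether genes 1 rose and 2 fell, those named being TRAPPC10 at 0.56 and TRAPPC6A at -0.50. Of 23 genes of other insertion machines 0 rose and 1 fell (GET1, -0.75 ± 0.13, adjusted p = 0.000646), and 0 and 4 with that scaling. It also gave 1 rise and 2 falls in the oligosaccharyltransferase list, 2 and 2 in the further COPI and the p24 lists, 1 and 4 in the TRAPP list and 0 and 3 in the exocyst and AP-1 list. Of 14 exocyst and AP-1 genes, which act after the Golgi, 1 rose and 1 fell (AP1G1 at 0.13, EXOC6 at -0.71).

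With STINGX added, 17 of the 110 rose and 15 fell, with a median log2 change of 0.07, but 40 rose and 7 fell with scaling by library total alone, where the median was 0.21. Among all tested genes in the reported fit, 13.7% rose and 13.8% fell, and the shares in the 110 were near these. Oligosaccharyltransferase genes gave 4 rises and 1 fall (5 and 0 with that scaling), led by OSTC (0.37 ± 0.06, adjusted p = 0.000445) and RPN1 (0.33 ± 0.05, adjusted p = 0.00053). Of the 18 further COPI genes 0 rose and 5 fell (3 and 0 with scaling by library total alone), among them COPG2 (-0.29 ± 0.06, adjusted p = 0.0031) and ARFGAP3 (-0.27 ± 0.05, adjusted p = 0.00193). Further COPII genes gave 5 rises and 2 falls (11 and 2 with that scaling), led by the SNARE BET1 (1.13 ± 0.31, adjusted p = 0.019) and the cargo receptor CNIH1 (0.52 ± 0.16, adjusted p = 0.0333). The other insertion machines gave 6 rises and 4 falls (9 and 3 with that scaling), with EMC10 at -0.65 (adjusted p = 3.38e-05) and GET1 at 0.54 (adjusted p = 0.00658). TMED5 rose (0.44) and TMED4 was 1 of 2 p24 genes that fell (-0.33). TRAPPC6B rose (0.33) and AP1B1 fell (-0.48), each the sole call of its list, whereas scaling by library total alone gave 4 rises and 0 falls in the TRAPP list, 6 and 1 in the exocyst and AP-1 list and 2 and 1 in the p24 list.

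ER stress genes and CREB3 family factors, known regulators of secretory pathway genes, are given beside the members as measured values. With TGFb, 3 of 18 rose and 2 fell (3 and 4 with scaling by library total alone), led by CREB3L1, a transcription factor known for its part in collagen secretion, and ATF6B, which fell (-0.38 ± 0.04, adjusted p = 2.82e-05). CREB3L1 was at 127, 123, 121 and 122 CPM in control, 194, 206, 194 and 203 with TGFb and 109, 116, 115 and 114 with STINGX and TGFb. The TGFb libraries lay above all others, with changes of 0.69 ± 0.04 (adjusted p = 2.22e-08) and -0.81 ± 0.04 (adjusted p = 5.3e-09). With STINGX added, 11 of 18 rose and 2 fell (14 and 2 with scaling by library total alone). Among all tested genes in the reported fit, 13.2% rose and 12.8% fell with TGFb, and 13.7% and 13.8% with STINGX added. HSPA5, the main ER chaperone, was at 1916 ± 68.1 CPM, 2152 ± 46 CPM and 6120.2 ± 87.4 CPM in control, TGFb and STINGX with TGFb (mean ± SD, n = 4), a second change of 1.51 ± 0.03 (adjusted p = 4.44e-12). DDIT3 rose by 1.53 ± 0.32 (adjusted p = 0.00446). XBP1 passed neither test (adjusted p = 0.429 and adjusted p = 0.568). Their part in the members' changes was not tested.

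Transcript counts, estimated by the authors for each annotated transcript, were tested in the same way. Of 469 deposited transcripts of the members 316 were tested. With TGFb 6 rose and 1 fell, where 2.33% of all 79677 tested transcripts were called in either direction. With STINGX added 8 rose and 1 fell (2.4% called over all), and from control to both agents 17 rose and 1 fell (3.45% called). In 20 members 1 transcript held over 90% of the counts in every library. The SEC22B transcript ENST00000578049 was at 256, 254, 249 and 247 CPM in control, 136, 147, 129.8 and 131 with TGFb and 211, 203, 195 and 197 with both agents, with log2 changes of -0.89 (adjusted p = 2.95e-06) and 0.57 (adjusted p = 0.000105). The SEC23A transcript ENST00000307712 changed by 0.45 and -0.24 (adjusted p of 0.000718 and 0.0363). Not every leading transcript passed with its gene. With TGFb those of COPB1 (ENST00000439561) and COPB2 (ENST00000333188) stood at 0.0006 and 0.09 (adjusted p of 0.999 and 0.397), although both genes were called higher. Another COPB1 transcript, ENST00000249923, stood at 2.11 (adjusted p = 0.422).

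SEC11C was shared between transcripts, and its leading one, ENST00000587834, held between 41.4% and 84.9% of its counts and rose with STINGX added by 1.27 (adjusted p = 0.0138). In COPA, SPCS1, SPCS2, SSR2 and TRAM1 the leading transcript fell below 10% in at least 1 library. For SPCS2, transcript ENST00000610881 was at 64.3, 49.2, 43.9 and 10.1 CPM in control and 61, 4, 44.1 and 2.61 with TGFb. Transcript ENST00000263672 of the same gene was at 0 in 3 control libraries and at 48 CPM in the fourth. Low and high libraries thus occurred within a group, and the changes of single transcripts of these 5 genes are not read here.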

How the data were processed

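Polyadenylated RNA of LX2 cells was sequenced with a stranded TruSeq kit in 12 libraries, per the labels' protocols. The submitters' processing notes name cutadapt, HISAT2, StringTie and edgeR and the build GRCh38. Which annotation release was used, and whether counting used strand, is not given in the sources used here. Estimated counts of reads per gene and per transcript were made by the authors, with StringTie among their named tools, and deposited unnormalized. FPKM (fragments scaled by feature length and library total) were deposited by the authors beside them.

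Counts, rounded to whole numbers, were fitted for all 12 libraries together with edgeR 4.0.16 in R 4.3.3 (quasi-likelihood F test, TMM scaling, filterByExpr with a minimum count of 10 and a minimum total of 15). Adjusted p is Benjamini-Hochberg over all 21328 genes, or 79677 transcripts, with a threshold of 0.05. CPM were computed with TMM scaling from the deposited counts. Log2 changes come from this fit, with standard errors derived from F. Values on the log2(FPKM + 1) scale were computed from the deposited FPKM with limma 3.58.1 as an alternative, and DESeq2 1.42.0 was another. The fit was tried on simulated data that varied less between libraries than these data. That trial therefore cannot show how the fit performs at the spread found here. There were 13 other settings, and each of the 12 libraries was left out in turn. The log2 ratios between paralogues were added after seeing the data.

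The 49 members, the other lists and the tests were chosen with earlier results of these data known. Library values are given in full for the 6 largest rises and falls past the threshold in TGFb against control and in STINGX with TGFb against TGFb and for paralogue groups, and of each other list the 2 largest changes past the threshold are named. The labels state no pairing by replicate number, and 0 of 12 same-numbered pairs had deviations correlated above 0.1. A low correlation over all genes cannot show whether same-numbered libraries share a culture or run. Promoter windows and their coordinates are from RefSeq (GRCh38.p14), and gene coordinates are those of the deposited table.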

Additional observations from a re-analysis of the deposited data

Results flagged for a closer look

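In groups of 4, 9 of the 147 member-by-group sets had 1 library set far apart from the other 3 relative to the range of the group. Chance gives about 1 in 20 for normally spread values, and the number flagged was near that share. The rule did not flag SURF4 in control replicate 3, at 53.6 CPM against 376 to 467 in the others. SRP9 was at 50.4 CPM in TGFb replicate 4, against 133 to 141 in the others. SRP68 was at 134 CPM in control replicate 2 (others 79.4 to 86.3) and at 132 CPM in TGFb replicate 1 (others 85.9 to 91.1). SAR1A was at 129 CPM in control replicate 3 (others 37.6 to 38). SSR2 was low at 101 CPM in control replicate 3, and SSR3 was high at 695 CPM in STINGX with TGFb replicate 2 (others 567 to 583). The remaining sets differed by less: SEC11C at 32.5 CPM in control replicate 2, SEC24B at 43.7 CPM in control replicate 2 and SPCS3 at 127 CPM in STINGX with TGFb replicate 3. Their causes were not tested.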

How the results depend on the processing

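Of the members called, 13 of 24 in TGFb against control, 15 of 18 in STINGX with TGFb against TGFb and 24 of 29 in STINGX with TGFb against control were called in all 13 other settings and with each library left out. In TGFb against control SRP19, SRP72, MIA3, COPA and COPB2 lost their call on log2(FPKM + 1) without a filter and in no other setting.

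In TGFb against control, members called lower numbered 1 in the reported fit, 2 with upper quartile scaling, 4 with library size alone, 2 with a filter of 1 CPM, 3 on log2(FPKM + 1), 4 on log2(FPKM + 0.1) and 2 on log2(FPKM + 1) without a filter. The last setting, which tests more genes, gave 12 members and 1766 genes higher. The members' median log2 change was 0.20 as reported, 0.16 with upper quartile scaling, 0.13 with library size alone, 0.13 on log2(FPKM + 1) with or without a filter and 0.14 on log2(FPKM + 0.1).

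In STINGX with TGFb against TGFb, library size alone, log2(FPKM + 1) and log2(FPKM + 0.1) each gave 24 members higher and 1 lower. Over all genes these settings gave 4997, 4918 and 4865 higher and 1890.0, 1907 and 1905 lower, with members' medians of 0.19, 0.17 and 0.18. On log2(FPKM + 1) without a filter 1 member and 1534 genes were lower, with a median of 0.17. COPG1 changed sign, from -0.02 to 0.12, 0.11 and 0.12 under the first 3 of these settings, where it passed the test. Others that changed sign there without passing in any setting were SEC61A2, SEC61G, SSR2, SEC11A, SPCS1, SEC13, SEC24A, SEC24C, SEC16A and COPA. The median of all tested genes shifted upward by 0.14 with library size alone, 0.05 on log2(FPKM + 1) and 0.12 on log2(FPKM + 0.1). Whether this shift accounts for each sign change was not tested.

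In STINGX with TGFb against control, 1 member was lower, in place of 2, with library size alone, with no filter on low counts, and on the log2(FPKM + 1), log2(FPKM + 0.1) and unfiltered log2(FPKM + 1) scales, the last with 2212 genes lower. The median of 0.25 became 0.20 with upper quartile scaling, 0.33 with library size alone, 0.28 with limma-voom, 0.33 on log2(FPKM + 1) with or without a filter and 0.35 on log2(FPKM + 0.1).

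With the replicate block, member counts were 23 higher and 1 lower in TGFb against control, 14 and 4 in STINGX with TGFb against TGFb, and 27 and 3 in STINGX with TGFb against control, where the median was 0.28. Of the 24 comparisons of a library with the 4 libraries of another group, 8 had the highest correlation with its own number. Some such matches occur without any pairing, and this count was not tested. Member transcripts with the replicate block were 3 higher in TGFb against control (6 without it), and 5 higher and 0 lower in STINGX with TGFb against TGFb (8 and 1 without it). In the latter comparison a filter of 1 CPM gave 2 transcripts lower, and library size alone gave 16 higher and 0 lower.

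With 1 library left out, members called lower ranged from 1 to 2 in TGFb against control and from 1 to 3 in STINGX with TGFb against control. Transcripts lower ranged from 1 to 2 in TGFb against control, from 0 to 1 in STINGX with TGFb against TGFb and from 1 to 3 in STINGX with TGFb against control. Medians ranged from 0.0421 to 0.0639 in STINGX with TGFb against TGFb and from 0.22 to 0.30 in STINGX with TGFb against control. Without control replicate 3, in which SURF4, SEC61A1 and SAR1A stood apart, 23 members were higher in TGFb against control and 15 in STINGX with TGFb against TGFb. Values that came to pass without 1 library were, in TGFb against control, SRP14 (without control replicate 4), SSR2 and KDELR1 (each without TGFb replicate 4) and, in STINGX with TGFb against TGFb, SEC24D (without STINGX with TGFb replicate 4), with adjusted p of 0.0072, 0.0313, 0.0171 and 0.0416, beside those given with the genes above. In STINGX with TGFb against control the call of SEC13 was lost in 10 of the 12 fits (adjusted p up to 0.123), that of COPG1 in 5 (up to 0.0983) and that of COPA in 3 (up to 0.0609). At these depths 1 count is worth at most 0.0185 CPM by library total alone, against 22.1 TMM-scaled CPM or more for every member.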
